A study of Mus musculus with 8 samples.

Results

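The genes described here are the receptor chains of the common gamma chain cytokine family with the kinases and the STAT5 factors that act below them. They were the rows of a table of read counts whose symbol was Il2ra, Il2rb, Il2rg, Il7r, Il4ra, Il21r, Jak1, Jak3, Stat5a or Stat5b, and 10 of the 10 were found among 21878 gene symbols. The counts come from RNA of peripheral blood of female C57BL/6 wild-type mice, 6 to 8 weeks old. The Stress group (n = 4) was held in a ventilated tube for 6 hours. The Control group (n = 4) were littermates left in their cage, and both groups went without food and water over that time.

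Interleukins 2, 4, 7, 9, 15 and 21 signal through receptors that share one chain, the common gamma chain encoded by Il2rg. Each receptor pairs the gamma chain with another chain or chains. The gamma chain recruits JAK3, and a partner chain recruits JAK1. The paired kinases phosphorylate STAT proteins, mainly STAT5 for interleukins 2, 7 and 15, which then enter the nucleus and switch on genes for survival and growth. In blood these receptors are known for keeping naive T cells alive (interleukin-7), for NK cells and memory T cells (interleukin-15) and for B cell responses (interleukins 4 and 21).

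Control libraries held 31471145 to 39014775 counts and Stress libraries 25978683 to 29655725. The haemoglobin genes took 51.9% to 63.8% of the Control counts and 61.2% to 75.5% of the Stress counts. Levels are therefore given as CPM, counts brought to one common library size with TMM factors, a method that rests on most genes being unchanged. These factors ran from 1.01 to 1.77 in the Control samples and from 0.507 to 1.10 in the Stress samples. A difference on this scale is a difference from the typical gene. In RNA from whole blood, fewer cells of a type and less RNA per cell cannot be told apart.

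After 6 hours of restraint, transcripts of this receptor family stood close to their Control levels. All 10 genes passed the filter (10 counts or more in 4 samples or more) and went into edgeR's quasi-likelihood test beside 11708 others. By the study's thresholds, an adjusted p below 0.01 together with a log2 fold change beyond 1 in size, 0 of the 10 were higher and 0 lower, where 1.69% of all 11718 tested genes were higher and 0.0171% lower. At an adjusted p below 0.05 with no threshold on the fold, again 0 were higher and 0 lower, against 10.4% and 3.69% of all tested genes. Il21r alone had an unadjusted p under 0.05 (edgeR), a cut at which the share of all tested genes was not taken. DESeq2 with an adjusted p below 0.05 gave 1, again Il21r as lower, where it called 4.76% of 12532 genes lower. The log2 fold changes ran from -0.36 for Il2ra to 0.10 for Stat5b, with 2 above 0 and 8 below (10 below on total counts alone), and their median was -0.11 against -0.02 for all tested genes.

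**Figure D1:**
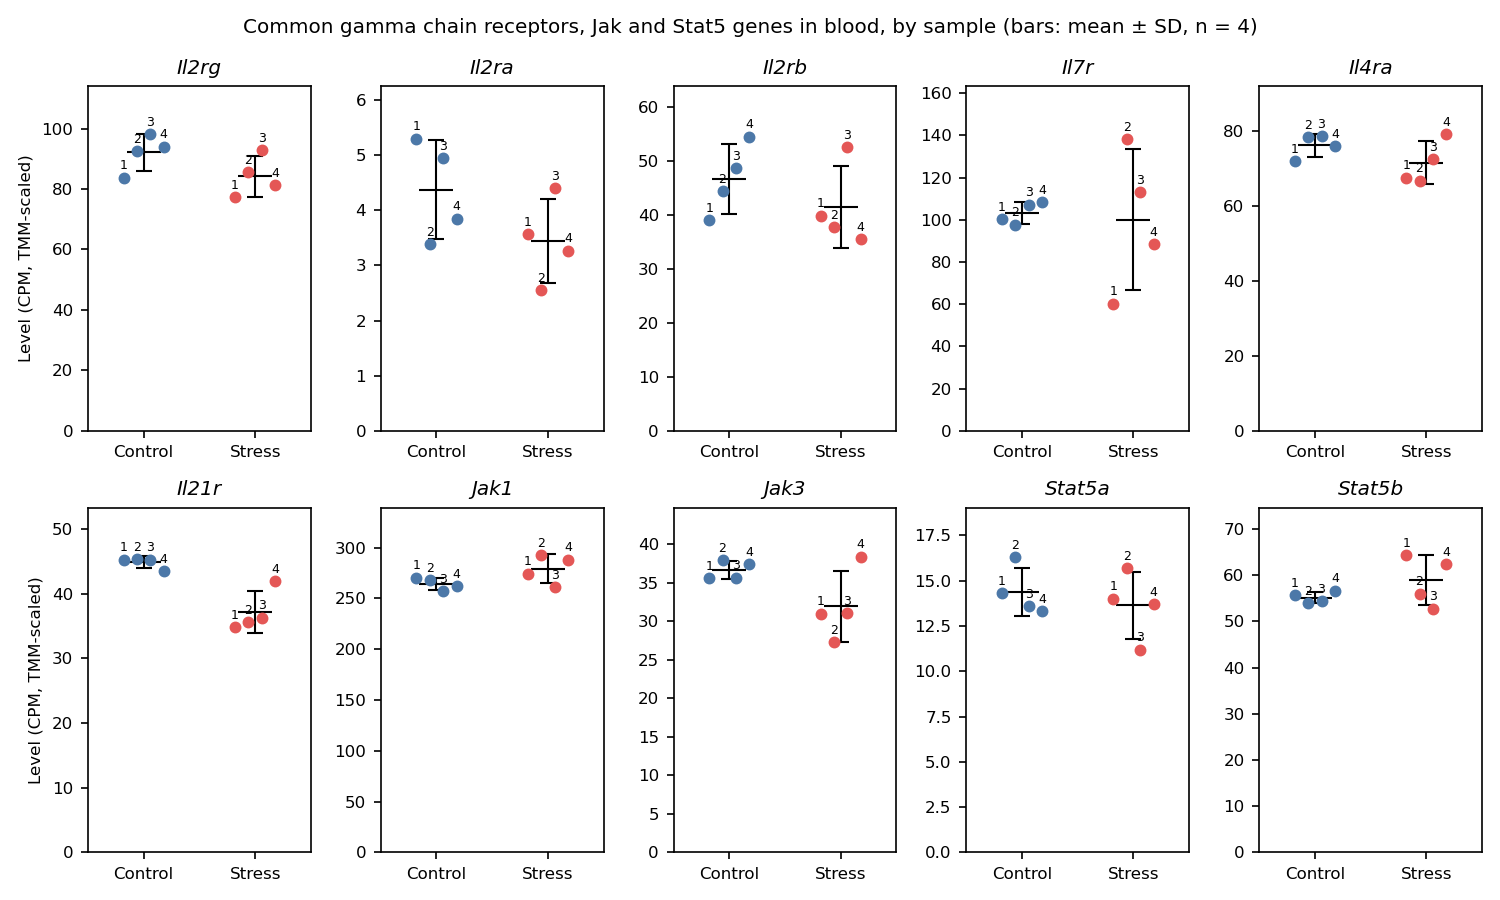
Level of each gene in CPM on the TMM scale (vertical axis, from 0) in the 4 Control and 4 Stress samples, numbered by replicate, with the mean and SD as bars. Only the Il21r panel has groups that do not overlap, and the Il7r panel has the widest spread in the Stress samples, from 60.3 to 138.2 CPM.

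The common gamma chain, Il2rg (GRCm38 chromosome X, 101264378 to 101268255), is the chain that every receptor of the family needs. Its level was 83.7, 92.5, 98.1 and 94.0 CPM in Control replicates 1 to 4 and 77.2, 85.5, 92.9 and 81.2 CPM in Stress replicates 1 to 4. The groups overlapped, with Stress replicates 2 and 3 inside the Control range and Stress replicates 1 and 4 below it. The log2 fold change was -0.13 (standard error 0.11, adjusted p = 0.45, edgeR), and its 95% interval, from -0.37 to 0.11, corresponds to a change of -22.4% to 7.69%. The annotation places 728 of the 2387 exon bases of Il2rg also in Gm20489 on the same strand, so part of its reads could be lost or split.

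Il2ra (chromosome 2, 11642807 to 11693193) encodes the alpha chain that raises the affinity for interleukin-2 and is carried by regulatory and activated T cells. It was the scarcest of the 10 genes, with 122 to 342 counts in the Control libraries but 55 to 102 in the Stress libraries. These gave 5.30, 3.39, 4.94 and 3.85 CPM in the Control samples and 3.57, 2.55, 4.40 and 3.27 CPM in the Stress samples. The ranges overlapped, Stress replicates 2 and 4 lying below every Control sample. Its value of -0.36 on the log2 scale (standard error 0.20, adjusted p = 0.251, edgeR) was the largest in size of the 10, and the interval of -0.80 to 0.08 was wide. Without Stress replicate 2 it was -0.21 (adjusted p = 0.528), in size below the -0.22 of Il21r. Foxp3, the defining factor of regulatory T cells, had a log2 fold change of -0.33 and likewise did not pass (adjusted p = 0.175, edgeR). Of the 5 listed markers of regulatory T cells, Foxp3 among them, 3 were below 0 and 2 above, with a median of -0.19.

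Il2rb (chromosome 15, 78479256 to 78495271) encodes the beta chain shared by the receptors for interleukins 2 and 15, which NK cells carry in quantity. It stood at 39.1, 44.5, 48.7 and 54.6 CPM in the Control samples and at 39.9, 37.8, 52.6 and 35.6 CPM in the Stress samples. The groups overlapped, and the highest sample of each was Control replicate 4 and Stress replicate 3. The same samples were highest in the summed level of 11 NK cell markers, at 144.2 CPM in Control replicate 4 and 157.5 CPM in Stress replicate 3, where the other 6 samples lay between 74.0 and 103.3 CPM. As a share of that sum, Il2rb was 37.9% to 47.1% in the Control samples and 33.4% to 48.2% in the Stress samples. Its log2 fold change was -0.17 (standard error 0.14, adjusted p = 0.422, edgeR), with an interval of -0.48 to 0.13.

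Il7r (chromosome 15, 9505788 to 9530176) encodes the interleukin-7 receptor alpha chain, which naive and memory T cells carry at rest. Its Control samples lay close together at 100.2, 97.7, 107.2 and 108.3 CPM, and its Stress samples at 60.3, 138.2, 113.2 and 88.6 CPM lay on both sides of them. The coefficient of variation was 5.03% in the Control samples and 33.3% in the Stress samples, the highest of the 10 genes in the Stress samples, and whether the spreads differ was not tested. The means were 103.4 ± 5.20 and 100.1 ± 33.3 CPM (SD, n = 4 each), and the log2 fold change was -0.05 (standard error 0.20, adjusted p = 0.902, edgeR). The interval of -0.48 to 0.38 corresponds to a change of -28.2% to 30.4%, so a moderate change in either direction was not detectable with these samples. Leaving out Stress replicate 1 turned the value to 0.16 (adjusted p = 0.527), and leaving out Control replicate 4 or Stress replicate 4 turned it to 0.01 (adjusted p = 0.989 and 0.987, same test).

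The summed level of 13 T cell markers stood in the same order over the Stress samples as Il7r, with 726.2 CPM in replicate 2, 682.0 in replicate 3, 593.6 in replicate 4 and 579.0 in replicate 1, against 654.5 to 693.1 CPM in the Control group. As a share of that sum, Il7r was 14.6% to 16.5% in the Control samples and 10.4%, 19.0%, 16.6% and 14.9% in Stress replicates 1 to 4. The spread of Il7r in the Stress samples was thus still there after division by the T cell markers. Of these 13 markers, 0 passed an adjusted p of 0.05 in either direction. The part of T cell number in the level of Il7r was not tested.

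Il4ra (chromosome 7, 125552120 to 125579474) encodes the chain for interleukin-4 that is shared with the receptor for interleukin-13 and is found on lymphocytes and myeloid cells. It measured 72.1, 78.5, 78.7 and 76.1 CPM in the Control samples and 67.6, 66.8, 72.6 and 79.3 CPM in the Stress samples. Stress replicate 4 was the highest of the 8 samples and Stress replicate 2 the lowest. The log2 fold change was -0.09 (standard error 0.10, adjusted p = 0.578, edgeR), with an interval of -0.32 to 0.13. An antisense gene, Gm44876, shares 571 of its 6002 exon bases on the opposite strand, and whether the counting used strand is not given in the sources used here.

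Il21r (chromosome 7, 125603429 to 125633570), which lies 24.0 kb from Il4ra, encodes the receptor chain for interleukin-21 and is best known on B cells. Control replicates 1 to 4 had 45.3, 45.4, 45.3 and 43.5 CPM, and Stress replicates 1 to 4 had 34.8, 35.6, 36.3 and 42.0 CPM. Every Stress sample lay below every Control sample, the only gene of the 10 for which the groups did not overlap. Among all tested genes the groups did not overlap in 9.88% with the Stress samples lower and in 11.1% with the Stress samples higher, so 1 of 10 is near that share. The log2 fold change was -0.27 (standard error 0.10, interval -0.48 to -0.06, edgeR unadjusted p = 0.0161, adjusted p = 0.0814). With DESeq2 the log2 fold change was -0.26 (adjusted p = 0.04), and without Stress replicate 4 edgeR gave 0.0346.

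The B cell markers stood lower in the Stress samples too. Of 11 such genes, 11 had a log2 fold change below 0, the median being -0.51. At an adjusted p below 0.05 (edgeR) 6 were lower, against 3.69% of all tested genes. Their summed level was 1078.4 to 1328.3 CPM in the Control samples and 732.3 to 967.0 CPM in the Stress samples. As a share of this sum, Il21r was 3.41% to 4.20% in the Control samples and 3.79% to 4.87% in the Stress samples, with overlap and with the difference turned to 0.17 on the log2 scale (two-sided exact permutation test, p = 0.2). The division by summed markers, here and for Il2rb, Il7r, Il9r and Foxo1, was chosen after the values were seen, and the part of B cell number in the level of Il21r was not tested.

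Jak1 (chromosome 4, 101152367 to 101265282), the kinase that partner chains of the gamma chain bind, had the highest CPM of the 10 genes and the most counts, 3438 to 17795 per sample. It measured 270.5, 267.7, 257.2 and 261.8 CPM in the Control samples and 274.4, 292.7, 260.9 and 288.0 CPM in the Stress samples. Stress replicates 1, 2 and 4 lay above every Control sample and Stress replicate 3 inside the Control range. The log2 fold change was 0.08 (standard error 0.13, interval -0.20 to 0.36, adjusted p = 0.722, edgeR).

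Jak3 (chromosome 8, 71676296 to 71690575), the kinase that is bound to the gamma chain and is largely restricted to blood cells, gave 35.6, 38.0, 35.7 and 37.4 CPM in the Control samples and 31.0, 27.3, 31.1 and 38.4 CPM in the Stress samples. Here Stress replicates 1 to 3 lay below every Control sample, while Stress replicate 4 was the highest of the 8. The log2 fold change was -0.20 (standard error 0.11, interval -0.44 to 0.04, adjusted p = 0.251, edgeR). Insl3, which shares 404 of the 5352 exon bases of Jak3 on the same strand, had 8 to 70 counts per sample where Jak3 had 410 to 2469.

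Stat5a (chromosome 11, 100859351 to 100885169) and Stat5b (chromosome 11, 100780731 to 100850724) encode the closely related factors that carry the signal to the nucleus, and they lie 8.6 kb apart. Stat5a stood at 14.3, 16.3, 13.6 and 13.3 CPM in the Control samples and at 14.0, 15.7, 11.2 and 13.7 CPM in the Stress samples. Stat5b stood at 55.6, 53.9, 54.3 and 56.6 CPM in the Control samples and at 64.3, 56.0, 52.7 and 62.4 CPM in the Stress samples. Both genes overlapped between the groups, and Stress replicate 3 was the lowest of the 8 samples in each. The log2 fold changes were -0.07 for Stat5a (standard error 0.12, adjusted p = 0.723, edgeR) and 0.10 for Stat5b (standard error 0.10, adjusted p = 0.551). Their intervals of -0.33 to 0.18 and of -0.12 to 0.32 correspond to a change of -20.4% to 13.7% for Stat5a and of -8.10% to 24.5% for Stat5b. Leaving out Stress replicate 3 turned Stat5a to 0.02 (adjusted p = 0.923, same test). Of the stretches of 100 bases in annotated Stat5a transcripts, 3.44% occur also in Stat5b, and 4.79% of those of Stat5b occur in Stat5a, so reads from there cannot be assigned to one gene.

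Ratios of counts within a sample do not depend on how libraries are scaled, so 7 of them were compared between the groups with two-sided exact permutation tests over 70 assignments of the samples, with p-values adjusted over the 7. None passed, and all 7 overlapped between the groups. The lowest p that this exact permutation test can reach is 0.0286. A single ratio could therefore not fall below 0.05 after the adjustment, even with full separation. The lowest p belonged to Jak3 over Jak1, which was 0.132, 0.142, 0.139 and 0.143 in the Control samples and 0.113, 0.0932, 0.119 and 0.133 in the Stress samples. Stress replicate 4 lay inside the Control range and the other 3 below it, a difference of -0.29 on the log2 scale (exact permutation p = 0.0571, adjusted p = 0.4). Stat5a over Stat5b averaged 0.261 ± 0.0285 for Control and 0.232 ± 0.0318 for Stress samples (SD, n = 4 each, exact permutation p = 0.257, adjusted p = 0.6).

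Relative to the gamma chain, the count of Il7r averaged 1.12 ± 0.0628 for Control and 1.18 ± 0.346 for Stress samples (SD, n = 4 each, exact permutation p = 0.886, adjusted p = 0.886). The log2 differences of the other receptor chains relative to Il2rg were -0.22 for Il2ra, -0.05 for Il2rb, 0.03 for Il4ra and -0.14 for Il21r, at exact permutation p-values of 0.4, 0.657, 0.771 and 0.229 (adjusted p = 0.7, 0.886, 0.886 and 0.6). No difference of these receptor chains relative to the shared chain was resolved with 4 samples per group and this test. The spread between samples was widest for Il7r in the Stress samples.

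**Figure D2:**
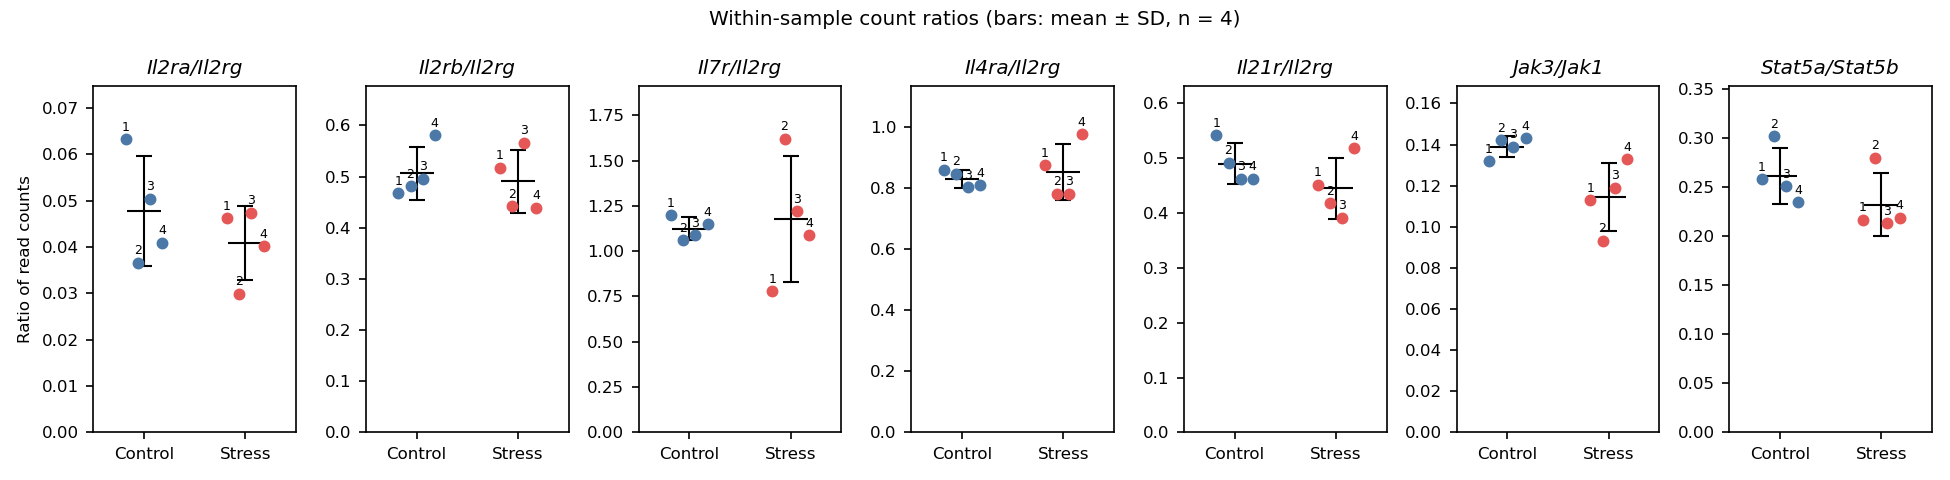
Ratio of the read counts of 2 genes in the same sample (vertical axes, from 0, no unit) for the 4 Control and 4 Stress samples, numbered by replicate, with the mean and SD as bars. All 7 ratios overlap between the groups, and Jak3 over Jak1 comes nearest to a separation.

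Levels of different genes were compared per kilobase of annotated exon (CPM per kb). In the Control group the order ran from Il2rg (38.6 ± 2.54, SD, n = 4) and Jak1 (36.6 ± 0.825) over Il7r (22.2 ± 1.12), Il21r (13.5 ± 0.281), Il4ra (12.7 ± 0.516), Il2rb (10.9 ± 1.53), Stat5b (9.95 ± 0.220), Jak3 (6.85 ± 0.228) and Stat5a (2.02 ± 0.186) to Il2ra (0.765 ± 0.158). The shared chain thus stood 50.5-fold above Il2ra in level. Il2rg and Jak1 overlapped in this order, as did Il21r with Il4ra, Il4ra with Il2rb and Il2rb with Stat5b, whereas Jak1, Il7r and Il21r stood apart from one another and Stat5b, Jak3, Stat5a and Il2ra did so as well. In the Stress group Jak1 (38.6 ± 1.99 CPM per kb) came before Il2rg (35.3 ± 2.81), Il4ra before Il21r and Stat5b before Il2rb. Each of these pairs overlapped in range.

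The scale decides how these values read. With scaling on total counts alone, the median of all tested genes fell to a log2 fold change of -0.82, and 49.6% of them were lower and 0.444% higher at an adjusted p below 0.05. On that scale 9 of the 10 genes were lower, Stat5b being the exception (adjusted p = 0.0778, edgeR), and 0 were higher. Jak1 and Stat5b turned from above 0 to -0.70 and -0.67. Measured from the median of that scale, the differences of the 10 genes ran from -0.36 for Il2ra to 0.16 for Stat5b, close to their range on the TMM scale.

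**Figure D3:**
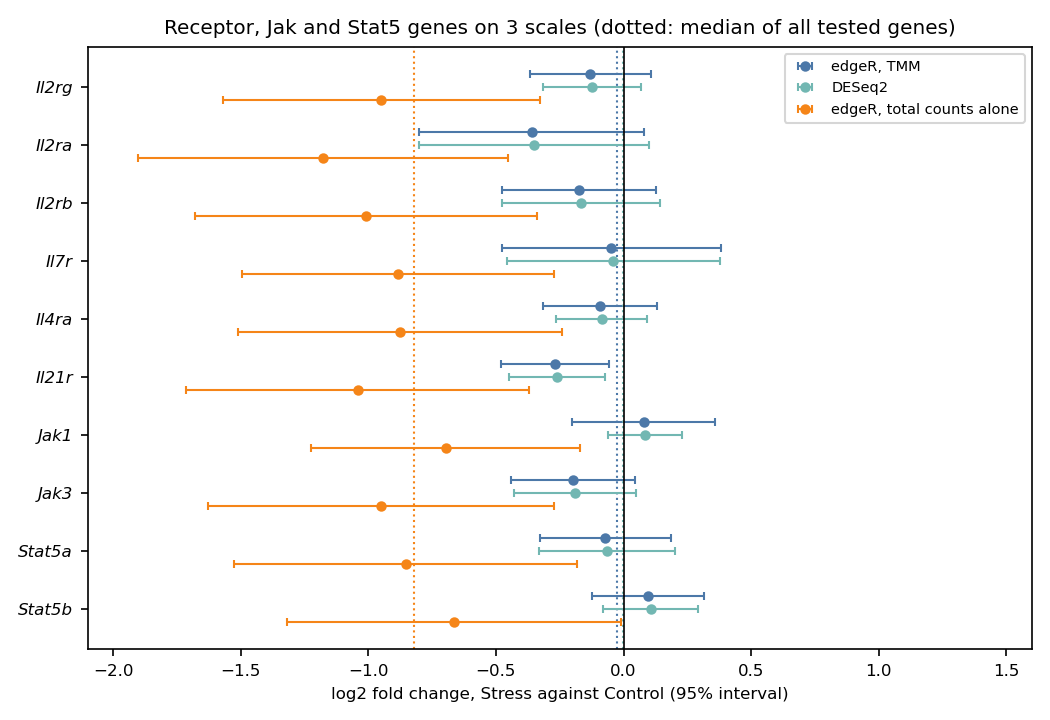
Log2 fold change of each gene, Stress against Control (horizontal axis), with its 95% interval, from edgeR with TMM, from DESeq2 and from edgeR with total counts alone. The dotted lines are the medians of all tested genes, -0.02 with TMM and -0.82 with total counts alone. On each scale the 10 genes sit about the median of that scale.

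A further 44 genes of the pathway were listed by role, and 37 were tested. Of these, 7 were higher and 2 lower at an adjusted p below 0.05, and 2 were higher and 0 lower at the thresholds of the study. The shares among all tested genes were 10.4% and 3.69%, and 1.69% and 0.0171%. DESeq2 gave 10 higher and 2 lower at an adjusted p below 0.05, the same 9 genes with Jak2, Mcl1 and Sh2b3 added, where it called 12.2% of all its genes higher and 4.76% lower. The median log2 fold change of the 37 was 0.11.

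Among the ligands Il15, the cytokine that sustains NK cells and memory T cells and is made by monocytes and other myeloid cells, was the one with enough counts to test. It had 2.20, 1.82, 1.52 and 2.27 CPM in the Control samples and 4.01, 4.78, 5.01 and 6.08 CPM in the Stress samples. The groups stood apart, and Il15 rose 2.58-fold (log2 fold change 1.37, standard error 0.20, adjusted p = 0.00111, edgeR). Leaving out each sample in turn kept the log2 fold change between 1.25 and 1.49 and the adjusted p below 0.05 in 8 of 8 fits. On total counts alone the value was 0.64 (adjusted p = 0.133), which is 1.46 above the median of that scale. Il2, Il4, Il7, Il9, Il13, Il21 and Tslp had at most 14 counts in any sample and were not tested, so a change in them was not detectable at this depth. Il9 and Tslp had 0 counts in each of the 8 samples.

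Among the receptor chains outside the 10 genes, Il13ra1, the partner of Il4ra in the receptor that myeloid cells use for interleukins 4 and 13, rose 2.45-fold. Its level was 6.39, 5.05, 5.29 and 6.06 CPM in the Control samples and 14.7, 11.5, 12 and 17.3 CPM in the Stress samples, with no overlap (log2 fold change 1.30, standard error 0.15, adjusted p = 0.000766, edgeR). On total counts alone its log2 fold change was 0.57, which is 1.39 above the median. Il4ra itself had the -0.09 given above. Il9r, the private chain for interleukin-9, fell from 7.20, 10.8, 8.79 and 8.58 CPM to 5.67, 4.31, 5.84 and 6.34 CPM, again with no overlap (log2 fold change -0.68, standard error 0.16, adjusted p = 0.0151). Il9r did not pass without Control replicate 2 (adjusted p = 0.068) or without Stress replicate 2 (adjusted p = 0.0505). Il15ra, the private chain for interleukin-15, and Crlf2, the receptor for Tslp, had log2 fold changes of 0.02 and 0.13 (adjusted p = 0.975 and 0.448).

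Most markers of monocytes, neutrophils and platelets were higher in the Stress samples at an adjusted p below 0.05 (edgeR), against 10.4% of all tested genes. Of 8 monocyte markers 6 were higher at an adjusted p below 0.05, with a summed level of 334.6 to 463.8 CPM in the Control samples and 702.7 to 1213.6 CPM in the Stress samples. For the 10 neutrophil markers 8 were higher, with sums of 194.6 to 381.8 and of 597.1 to 875.7 CPM, and for the 8 platelet markers 8 were higher, with sums of 1346.4 to 2025.2 and of 3102.9 to 3738.6 CPM. The 7 markers of red cell precursors, haemoglobin genes included, stood at 1.04 in their median log2 fold change with 0 past the test, and their sums overlapped, with 299899.1 to 656800.1 and 573382.8 to 1521386.9 CPM (a sum can exceed the library total where the TMM factor is below 1). The 5 markers of regulatory T cells, at 19.5 to 22.4 and 17.2 to 21.3 CPM, had 0 past the test, and NK cell markers had 1 lower of 11. Eosinophil and basophil markers had 1 higher of 4 tested at sums of at most 6.31 CPM, and Prg2, Epx and Fcer1a were at 0 in some samples. On total counts alone 3 of the 8 monocyte, 4 of the 10 neutrophil and 0 of the 8 platelet markers were higher. The share of all tested genes there was 0.444%, and 5, 10 and 8 of the markers were above 0. Lower on that scale were 11 of 11 B cell, 10 of 11 NK cell and 10 of 13 T cell markers, against 49.6% of all genes. By flow cytometry, the study reported fewer monocytes, T cells, B cells and NK cells and more neutrophils in blood after restraint. Those are cell numbers, where the markers here are RNA levels. The part of all these cell types in the levels of Il15, Il13ra1 and the genes below was not tested.

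The genes that STAT5 is known to switch on, and the genes listed as inhibitors of the pathway, were read next. Cish, a feedback inhibitor and the textbook target of STAT5, has 2 copies of the STAT motif TTCNNNGAA at its start site in the RefSeq promoter table (GRCm38.p6, 250 bases before to 50 after each start site). This motif reads the same on both strands, and 8.30% of 32851 promoters hold it at least once and 0.457% at least 2 times. Of the 10 genes, 9 had a promoter in the table, 11 windows in all, and Il7r alone held a match, which is a description of the letters and not evidence of a site in use. The windows of 30 bases around the matches are shown 5′ to 3′ on the strand of the gene, with the motif in capitals, from chr9:107296654-107296683 (plus strand) for Cish and from chr15:9530000-9530029 (minus strand) for Il7r.
Cish: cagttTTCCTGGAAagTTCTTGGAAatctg
Il7r: agttcaggagcTTCAGGGAAtaccaagatg

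Cish, whose window carries both copies, was scarce at 32 to 143 counts per sample. It stood at 2.17, 1.55, 2.07 and 2.08 CPM in the Control samples and at 3.43, 4.08, 2.43 and 2.24 CPM in the Stress samples. The groups did not overlap, Stress replicate 4 lying just above the Control range, and its difference of 0.64 on the log2 scale did not pass (standard error 0.23, adjusted p = 0.0829, edgeR). Socs1, another feedback inhibitor, had a log2 fold change of 0.77 (adjusted p = 0.0803) with overlapping groups. Cish passed without Stress replicate 4 (adjusted p = 0.0406), and Socs1 without Control replicate 3 or Stress replicate 4 (adjusted p = 0.0448 and 0.0315). On total counts alone the values were -0.17 for Cish and -0.11 for Socs1.

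Of the 9 genes listed as inhibitors, 2 were higher and 0 lower at an adjusted p below 0.05 (edgeR), against 10.4% and 3.69% of all tested genes. Ptpn11 is a phosphatase that can also promote cytokine receptor signalling, so its place in this list is loose. It rose from 67.8 to 94.9 CPM over the Control samples to 112.9 to 141.9 CPM over the Stress samples (log2 fold change 0.64, standard error 0.14, adjusted p = 0.00846, edgeR), where total counts alone gave -0.10. Socs3, an inhibitor best known for interleukin-6 and G-CSF receptors, rose from 14.5 to 19.5 CPM to 18.9 to 29.1 CPM (log2 fold change 0.50, standard error 0.14, adjusted p = 0.0323), where total counts alone gave -0.20. For Socs3 the ranges of the groups overlapped, and it did not pass without Control replicate 2 or 3 or without Stress replicate 1 or 4 (adjusted p up to 0.108). Ptpn11 passed whichever sample was left out (8 of 8).

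Of 9 target genes, 3 were higher and 0 lower at an adjusted p below 0.05 (edgeR), against 10.4% and 3.69% of all tested genes. Bcl2l1, which encodes the survival protein Bcl-xL and is abundant in maturing red cells, rose 2.36-fold, from 45.9, 40.1, 26.2 and 64.4 CPM to 105.4, 83.4, 151.3 and 76.9 CPM (log2 fold change 1.24, standard error 0.27, adjusted p = 0.011, edgeR). Stress replicate 3 was the highest sample and Control replicate 3 the lowest, as they were in the share of haemoglobin counts, at 75.5% and 51.9%. On total counts alone the value was 0.45, and Bcl2l1 did not pass without Stress replicate 3 (adjusted p = 0.0736), with the replicate block (adjusted p = 0.0895) or with no count filter (adjusted p = 0.0527). Pim1, a survival kinase, rose with a log2 fold change of 0.68 and Ccnd3, a cyclin of the G1 phase, with 0.57 (adjusted p = 0.0151 and 0.0141), while total counts alone gave -0.09 and -0.19. Without Control replicate 2 neither passed (adjusted p = 0.0609 and 0.065), and Ccnd3 did not pass without Control replicate 3 (adjusted p = 0.0562). Both were lowest in Control replicate 3 and highest in Stress replicate 3, like Bcl2l1, and the part of red cells in this was not tested. Bcl2, the survival gene that interleukin-7 maintains in lymphocytes, had a log2 fold change of -0.44 (adjusted p = 0.0739, and 0.0427 without Stress replicate 2), and Pim2 had 0.26 (adjusted p = 0.11).

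Over all tested genes edgeR called 10.4% higher and 3.69% lower at an adjusted p below 0.05, and DESeq2 12.2% and 4.76%. Of the 5 other kinases and STATs and the 6 adaptor and PI3K genes 0 passed with edgeR, and 1, Jak2, with DESeq2. The ones nearest to the threshold were Jak2, the kinase of the erythropoietin and thrombopoietin receptors (log2 fold change 0.30, adjusted p = 0.078, edgeR, and 0.31, adjusted p = 0.0312, DESeq2), and Tyk2 (-0.14, adjusted p = 0.379), and among the adaptors Pik3r1 (-0.21, adjusted p = 0.185) and Grb2 (0.11, adjusted p = 0.472). Foxo1, the factor that maintains Il7r transcription in naive lymphocytes, fell from 65.4, 71.2, 69.4 and 56.6 CPM to 56.1, 49.6, 42.0 and 53.5 CPM (log2 fold change -0.38, standard error 0.12, adjusted p = 0.0484). The groups of Foxo1 did not overlap by a narrow margin, Control replicate 4 lying just above Stress replicate 1, and it passed in 2 of 8 fits with a sample left out, those without Control replicate 4 and without Stress replicate 4 (adjusted p up to 0.148 in the others). Foxo1 did not pass with RLE factors (adjusted p = 0.0504), with no count filter (adjusted p = 0.0546) or with the replicate block (adjusted p = 0.0981), and it passed with DESeq2 (adjusted p = 0.0202). As a share of the B cell markers, Foxo1 overlapped between the groups (a log2 difference of 0.06, exact permutation p = 0.714). Gabpa and Gfi1, which also act on Il7r, had log2 fold changes of -0.15 and -0.17 (adjusted p = 0.339 and 0.745).

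**Figure D4:**
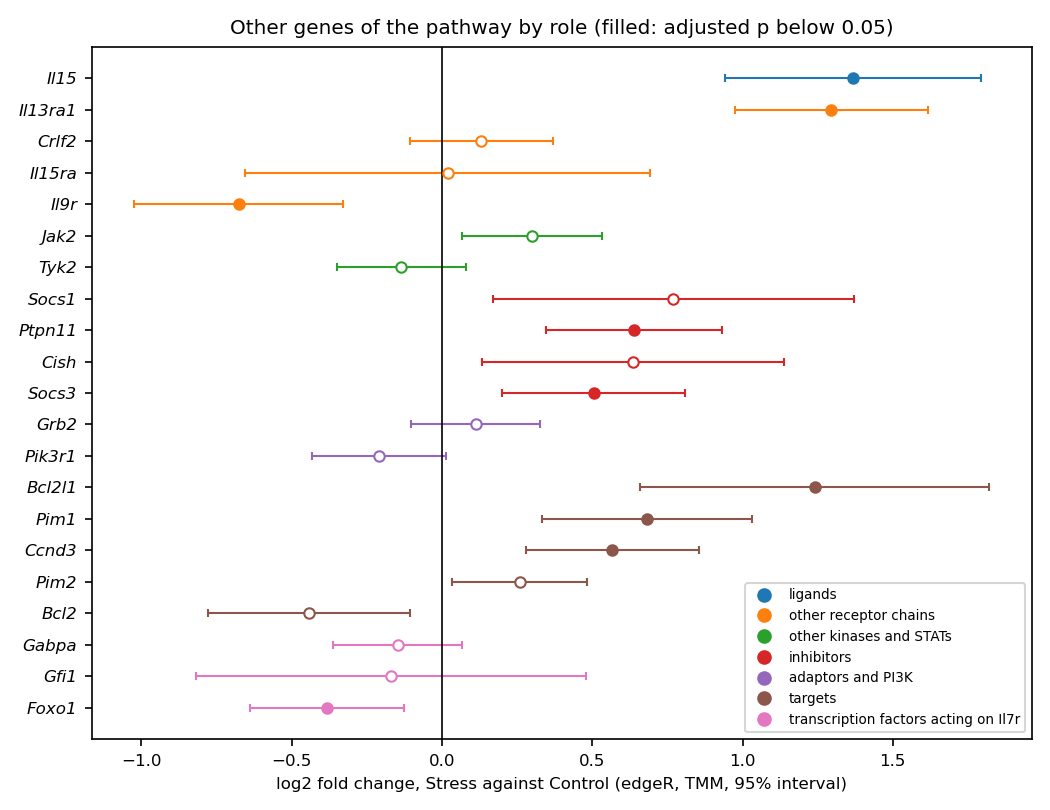
Log2 fold change of 21 other genes of the pathway, Stress against Control (horizontal axis, edgeR with TMM), with 95% intervals and colours by role, filled where the adjusted p was below 0.05. Il15, Il13ra1 and Bcl2l1 lie farthest to the right, and Il9r and Foxo1 are the filled points to the left of 0.

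The genes whose profile over the 8 samples was most like that of each receptor gene were sought among the other 123 tested genes listed here, by the root mean square difference of log2 CPM with each profile centred on its mean. Nearest to Il7r were Cd3e (0.214) and Cd3d (0.217), both chains of the T cell receptor complex, and nearest to Il2rb was Nkg7 (0.093), a gene of NK and cytotoxic cells. Il21r and Jak3 were nearest to each other (0.085), with Il4ra second for both (0.101 and 0.094). Il2ra was nearest to Foxp3 (0.231) and almost as near to Ptpn2 (0.238), a gene of the inhibitor list, against a median of 0.459 over the 123 genes. Jak1 lay nearest to Stat6 (0.073) and Stat5b to Ptk2b (0.073), and each of Jak1 and Stat5b had the other as its second (0.083). For Il2rg and Il4ra the nearest was Ikzf2 (0.088 and 0.080), and for Stat5a it was Shc1 (0.120). The profiles share their libraries and the scaling, and genes that vary little are near to one another by construction.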

How the data were processed

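Blood RNA of 4 Control and 4 Stress mice was sequenced, and the authors deposited one table of raw read counts per gene symbol, one column per sample. Per the labels, the submitters' processing notes name HISAT2, featureCounts and mm10, and neither versions, annotation, strand setting nor filters are given in the sources used here. The 10 genes and the lists were chosen with earlier results of these data known.

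The filter kept 11718 genes (10 counts or more in 4 samples or more), which were tested in R 4.3.3 by the robust quasi-likelihood test of edgeR 4.0.16 with TMM factors, and p-values were adjusted by Benjamini-Hochberg over all of them. Named were all 10 genes, the pathway genes with an adjusted p below 0.05, and the next 2 per role by p. On simulated counts of this comparison (11564 genes tested), 182 of 200 genes with a log2 fold change of 2 were recovered at the study's thresholds, with 1 false call. Changes as small as those of the 10 genes were not simulated, so this does not tell how often they would be found. Alternatives were DESeq2 1.42.0, other scalings and filters, leaving out each sample, and a replicate block. Nothing says that replicates came from separate cages, so p-values measure the spread between these samples. Coordinates and exon lengths are from GENCODE M21 (GRCm38), the build the labels name as mm10. Promoters are from RefSeq.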

Additional observations from a re-analysis of the deposited data

Results flagged for a closer look

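The levels of the 10 genes and the 7 ratios were checked for a sample far from the other 3 of its group (Dixon's ratio at its 95% critical value), 34 groups in all, of which chance flags about 1 in 20. Control replicate 4 had 43.5 CPM of Il21r where the other Control samples had 45.3 to 45.4 CPM, a gap of 0.914 of the range in a group that was otherwise tight. In Stress replicate 2 the ratio of Stat5a to Stat5b was 0.280, where the other Stress samples had 0.213 to 0.219, also a gap of 0.914 of the range, and the Control samples had 0.235 to 0.302.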

How the results depend on the processing

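Of the 10 genes, all 10 kept their direction and did not pass an adjusted p of 0.05 with upper-quartile or RLE factors, without haemoglobin genes, with no count filter or 10 counts in every sample, and with the replicate block. The deviations of same-numbered samples from their group means had correlations of 0.062, 0, -0.045 and -0.16. Those of differently numbered samples ran from -0.08 to 0.11. Whether same-numbered samples were paired is not given in the sources used here, and these values cannot decide it. The replicate block left 6 pathway genes higher and 1 lower at an adjusted p below 0.05, Bcl2l1 and Foxo1 no longer passing. Over all 11718 tested genes the block gave 919 higher and 240 lower, against 1222 and 432 without it. On total counts alone 9 of the 10 genes were lower, DESeq2 gave 1, and leaving out one sample gave 0 to 1. For the pathway genes, total counts alone gave 0 higher and 15 lower at an adjusted p below 0.05, and 0 higher and 3 lower at the thresholds of the study, because that scale moves the median of all genes. Over all 11718 tested genes it gave 52 higher and 5811 lower, and 14 higher and 728 lower. RLE factors and no filter each gave 1 pathway gene lower at an adjusted p below 0.05. Over all genes they gave 409 of 11718 and 402 of 15930 lower. Leaving out one sample gave 4 to 8 pathway genes higher and 0 to 2 lower, both lowest without Control replicate 2. Over all tested genes these fits gave 617 to 1425 higher and 81 to 726 lower. Over all 11531 genes tested without that sample the calls were also the fewest of these fits, 617 higher and 81 lower. The cause was not tested. Total counts alone turned Jak1 to -0.70, Stat5b to -0.67, Ccnd3 to -0.19, Pim1 to -0.09, Ptpn11 to -0.10, Socs3 to -0.20, Crlf2 to -0.67, Il15ra to -0.78, Jak2 to -0.44, Socs1 to -0.11, Cish to -0.17, Grb2 to -0.71 and Pim2 to -0.56. Leaving out one sample moved Il7r between -0.21 and 0.16, Stat5a between -0.12 and 0.02, Il15ra between -0.12 and 0.28 and Gfi1 between -0.43 and 0.09, with none of these past the test. Divided by the B cell markers, Il21r was at 0.17 and Foxo1 at 0.06, an alternative chosen after seeing the data. Counts behind a value went down to 21 for Il15ra, 29 for Gfi1, 32 for Cish, 50 for Socs1 and for Foxp3, 55 for Il2ra and 66 for Il15. A further 7 ligands had too few for a test.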

Other observations

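Other pathway genes whose groups did not overlap were looked at after their values were seen. Mcl1, a survival gene of the Bcl2 family, had 171.0 to 196.7 CPM in the Control group and 197.6 to 236.7 CPM in the Stress group, and its log2 fold change was 0.25 (adjusted p = 0.198 with edgeR and 0.0436 with DESeq2). Sh2b3, an adaptor that restrains cytokine signalling in blood cells, had 65.4 to 78.3 and 78.4 to 101.5 CPM (log2 fold change 0.32, adjusted p = 0.0879 with edgeR and 0.0381 with DESeq2). With total counts alone they were at -0.54 for Mcl1 and -0.43 for Sh2b3. With Il15, Il13ra1, Jak2, Cish, Ptpn11, Bcl2l1, Ccnd3, Pim1 and Pim2 they made 11 of 37 tested pathway genes with every Stress sample above every Control sample, and Il9r and Foxo1 made 2 with every Stress sample below, where 11.1% and 9.88% of all tested genes did so. Il9r was lower also as a share of the summed B cell markers, at 0.662% to 0.828% in the Control group and 0.589% to 0.656% in the Stress group, with no overlap (exact permutation over 70 assignments, two-sided, p = 0.0286, which is the lowest value this design can reach). Of the marker shares taken, for Il7r, Il21r, Il9r, Foxo1 and Il2rb, only this one separated, and its p was not adjusted for their number. The part of B cell number in the level of Il9r was not tested. Il7 had 6 to 10 counts in the Control libraries and 6 to 14 in the Stress libraries, too few to pass the filter for a test. In CPM these were 0.116 to 0.217 and 0.268 to 0.911, so that the groups did not overlap.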
